A study of Gallus gallus with 6 samples.

Results

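Isolated TCF21 regions are places in the chicken genome where TCF21 occupancy was called in each of 3 immunoprecipitation peak lists and where no second such place lay nearby. Peaks from different lists were merged into one region wherever they shared 1 bp or more, and a region on a numbered chromosome, Z or W that contained a peak of every list was called reproducible. An isolated region had no other reproducible region within 100 kb, measured between midpoints. There were 397 isolated regions among 36270 reproducible regions, or 1.09%, and the remaining 35873 had a neighbour within that distance. The isolated regions were chosen by the positions of the called peaks alone, and pileup, width, summit and input level come from the same peak lists. They are therefore given as descriptions with no test, and 3 lists could not give an exact paired permutation p under 0.25 in any case.

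TCF21 is a basic helix-loop-helix transcription factor, whose kind attaches in pairs to short DNA words called E-boxes, and in mice it is known from the development of mesenchymal tissues such as epicardium, kidney and lung and from precursors of white fat cells. Chromatin immunoprecipitation enriches the DNA fragments that a protein was crosslinked to, and the place where the fragments pile up highest, the summit, marks the likely contact. Regions bound by a factor are often grouped along a chromosome, and the isolated regions are the exceptions to this.

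The 6 samples were 3 immunoprecipitations, named TCF21_IP, and 3 samples of input DNA. All came from chicken preadipocytes, the precursors of fat cells, derived from adipose tissue and stably overexpressing TCF21 (LV-TCF21), so there was no group with the cells' own TCF21 level alone. Every sample had 24 h of 300 µM oleic acid, which was used to start fat cell differentiation, and the antibody was directed against the HA epitope. Whether samples of one group were separate cultures is not stated in the labels, so each SD over the lists measures a spread that may be technical. Each peak list was taken to come from 1 immunoprecipitation, which no label states. Lists 1, 2 and 3 held 59501, 55895 and 57436 peaks with a median pileup of 15, 14 and 12 fragments. The lists name no genome build, so positions are given as deposited and no gene was assigned to them. Sequencing depth is unknown and the pileups are unscaled, so the order of the lists in pileup includes any difference in depth.

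The isolated regions lay mostly on the largest chromosomes and on Z. The 5 autosomes of at least 50 Mb held 283 of them, or 71.3%, and 54.5% of all reproducible regions. The 6 autosomes of 20 to 50 Mb held 36 and the 20 shorter ones held 27, which came to 0.516% and 0.346% of the reproducible regions there, against 1.43% on the largest. Chromosome Z, the sex chromosome that both sexes of birds carry, held 48 isolated regions, or 2.84% of its 1691 reproducible regions. Chromosome W, found in hens, held 3 of its 13. A chromosome's span was counted up to its last peak in any list. The classes also differed in the density of reproducible regions, with 32.5 per Mb on the largest autosomes, 41.8 and 49.9 on the others, 20.6 on Z and 3.41 on W, and the part of density in the shares was not tested.

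Single chromosomes of like density differed in their share of isolated regions. Chromosome 4 had 64 isolated regions, or 2.19% of its reproducible regions, and chromosome 3 had 38, or 1.00%, although their densities were 32.0 and 34.0 regions per Mb. Chromosome 1 had the most, with 92, and chromosome 2 had 67. Among the smaller chromosomes, 13 had 10 isolated regions, or 1.29%, whereas chromosome 10 had 1 among 999. On 8 chromosomes, which were 14, 16, 23, 25, 26, 28, 30 and 32, every reproducible region had a neighbour. For chromosomes 30 and 32 the rule fixed this, since their spans of 0.0211 and 0.0769 Mb, with 3 and 5 reproducible regions, were shorter than 100 kb. Chromosome 14 was the richest of the 8, with 763 reproducible regions.

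**Figure D1:**
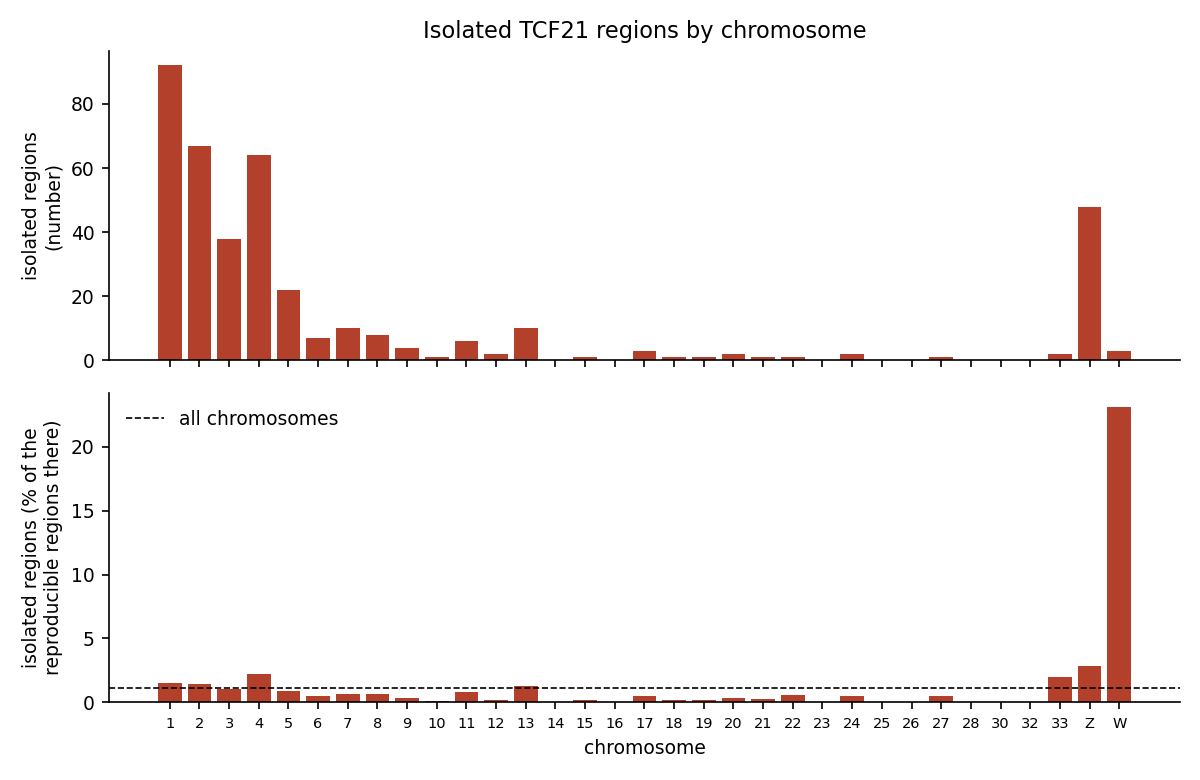
Isolated TCF21 regions on each chromosome, as their number (upper panel) and as a percentage of the reproducible regions of that chromosome (lower panel, with a dashed line at the 1.09% of all chromosomes together). Chromosomes 1, 2, 3, 4 and Z carry most of them, and the tall bar of W in the lower panel rests on 3 of 13 regions.

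By the rule, the nearest reproducible region is over 100 kb from an isolated one, and the interval between its neighbours on either side is over 200 kb. Most isolated regions lay near the first limit, with 238, or 59.9%, at 100 to 150 kb from the nearest. That distance had a median of 135 kb, with quartiles of 113 and 178 kb, and was over 200 kb for 74 isolated regions, over 300 kb for 28 and over 400 kb for 8. For the 394 isolated regions with a reproducible region on both sides, the whole interval between those flanking regions had a median of 370 kb and a maximum of 2371 kb, and 21 intervals exceeded 1 Mb. Within 1 Mb on either side, an isolated region had a median of 39 other reproducible regions, from 1 to 163, and the others had a median of 86. The rule fixes part of this last difference. Of the isolated regions, 3 were the first or last reproducible region of a chromosome.

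Most isolated regions stood singly between regions that had neighbours, and some followed one another. There were 233 single ones, 40 pairs, 18 runs of 3, 6 runs of 4 and 1 run of 6. The run of 6 lay on chromosome 4, from 86892275 to 88313434, in an interval of 1681 kb, and the mean pileups in it went as low as 8.33 and as high as 47.3 fragments. A run of 3 on the same chromosome, from 26181962 to 28448712, was spread over an interval of 3002 kb. In 5-Mb windows, 155 of the 222 with any reproducible region held an isolated one, and 24 windows with at least 5 held 138 in all. The fullest were the windows from 35 to 40 Mb on Z, with 9 isolated among 60 regions, and from 75 to 80 Mb on chromosome 2, with 9 among 123. On chromosome 1, the windows from 155 to 160 and from 160 to 165 Mb each held 6 isolated among 39 regions.

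Isolated regions had lower pileups than the other reproducible regions in each list. The median pileup at isolated regions was 17, 15 and 12 fragments in lists 1, 2 and 3, against 23, 21 and 17 fragments at the others. The ratio of these medians was 0.720 ± 0.0173 (mean and SD over 3 lists). Among all reproducible regions ranked within a list, the median isolated region stood at percentile 33.1, 31.9 and 29.3. The lowest decile of pileup held isolated regions at 2.65 ± 0.132% and the highest at 0.506 ± 0.0715%. The shares fell through the lower deciles, while those of the seventh to ninth lay between 0.684% and 0.791% and overlapped between lists.

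**Figure D2:**
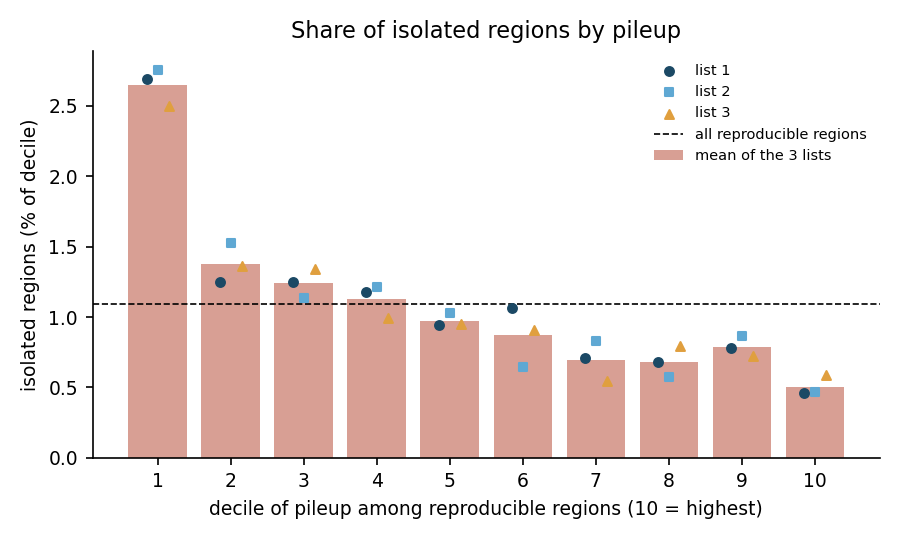
Percentage of reproducible regions that are isolated, in each decile of pileup (points, 1 per list; bars, mean of the 3 lists; dashed line, 1.09% of all reproducible regions). The lowest decile averages 2.65% and the highest 0.506%.

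Strong regions were present among the isolated ones, at lower shares than among the others. A pileup of at least 100 fragments in every list was reached by 5 isolated regions, or 1.26%, against 2.73% of the others, and at least 50 in every list by 25, or 6.30%, against 12.2% of the others. A pileup in the highest decile of every list was seen at 15 isolated regions, or 3.78%, where 8.36% of all reproducible regions met this. At the weak end, 49 isolated regions, or 12.3%, had at most 10 fragments in every list, against 4.35% of the others. Fold enrichment, the authors' ratio of pileup to local input with 1 added to each, differed less. Its median at isolated regions was 7.19, 6.28 and 6.13 in lists 1, 2 and 3, against 7.69, 7.25 and 7.16 at the others, a ratio of 0.886 ± 0.0425. It was at least 10 in every list at 71 isolated regions, or 17.9%, where 23.6% of all reproducible regions reached this. A q-value of at most 0.05 in every list was held by 370 of the 397, or 93.2%, where 95.7% of all reproducible regions had one.

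The isolated region with the highest mean pileup was at chromosome 2, 95152037 to 95152726, with 130, 152 and 144 fragments in lists 1, 2 and 3 (142 ± 11.1, SD, n = 3). Its nearest reproducible region was 198 kb away, its summits spanned 7 bp, and it ranked 426 of 36270 by mean pileup. Chromosome 15, at 10598647 to 10600265, followed with 124, 134 and 110 fragments. Its pileup was below that of the first region in every list, with a mean of 123 fragments. It was the only isolated region of chromosome 15.

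A second strong region of chromosome 2, at 77629452 to 77630420, had pileups of 127, 117 and 108 fragments, with the nearest reproducible region at 248 kb. On chromosome 4, the region at 1669610 to 1671049 had 121, 112 and 108 fragments. It was only just isolated, at 102 kb, and had 121 other reproducible regions within 1 Mb, so it lies in a gap of a rich stretch. On chromosome 1, that at 94321458 to 94322271 had 129, 103 and 93 fragments and 10 other reproducible regions within 1 Mb. Strong isolated regions thus occurred both in poor and in rich surroundings. A further one, on chromosome 3 at 35661379 to 35661996, had 112, 103 and 108 fragments, and list 1 was the highest there by a small margin.

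Chromosome 27 had its only isolated region at 959386 to 960144, with 115, 101 and 90 fragments. It was the first reproducible region of its chromosome, with 257 kb to the next. Its fold enrichment was 22.3, 19.4 and 44.9 in lists 1, 2 and 3, so list 3 stood well above the other lists although its pileup was the lowest. The region at chromosome 2, 82015014 to 82016075, had 93, 94 and 87 fragments, and its fold enrichment of 48.2, 49.4 and 27.0 set list 3 below the others. Its input level was at the floor in lists 1 and 2, so the higher values were set by that floor. At chromosome Z, 53292785 to 53293854, the pileup was 106, 96 and 66 fragments, and fold enrichment was 39.9, 35.8 and 35.6. The last of the 10, at chromosome 3, 5934777 to 5936347, had 90, 89 and 87 fragments, the closest agreement in pileup of the 10, with a SD of 1.53.

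**Figure D3:**
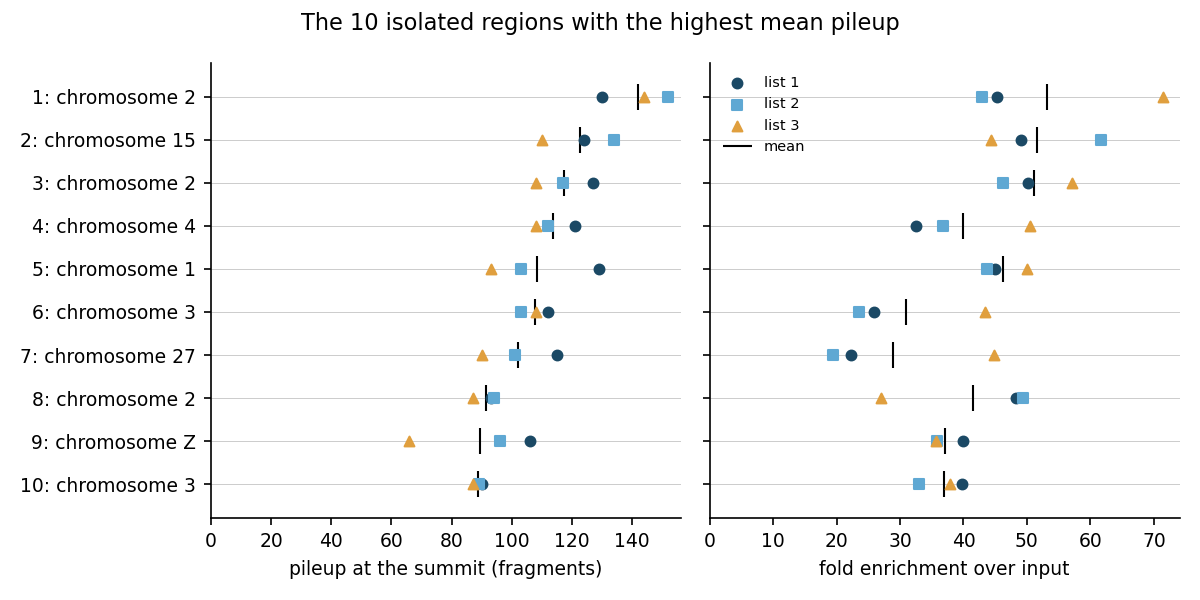
Pileup (left) and fold enrichment over input (right) in each list at the 10 isolated regions with the highest mean pileup, from the highest down (points, lists; vertical ticks, mean of the lists). On chromosome 27 list 3 has the lowest pileup and the highest fold enrichment, and on Z the pileups spread from 66 to 106 fragments while fold enrichment spreads from 35.6 to 39.9.

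The 5 regions farthest from any other ranged from weak to strong. The most distant one, at chromosome 4, 27569115 to 27569523, had pileups of 9, 13 and 14 fragments in lists 1, 2 and 3 and a fold enrichment of 6.11 ± 1.84 (SD, n = 3). The next reproducible region was 879 kb away on one side and 1387 kb on the other, and no peak of any list lay within 100 kb. The second, at chromosome 1, 100460330 to 100460891, had 18, 27 and 23 fragments and stood 750 and 1017 kb from its neighbours. By mean pileup they ranked 29348 and 15714 of the 36270. The region at chromosome 2, 134407641 to 134408218, had 25, 30 and 31 fragments at 509 kb from the nearest, and its summits spanned 2 bp. At chromosome Z, 61749106 to 61749509, the pileup was 9, 7 and 8 fragments, the nearest reproducible region was 492 kb away, and the nearest peak found in only 1 or 2 lists was farther, at 629 kb. The region of chromosome 2 at 82015014, described above as one of the strongest, was the fifth of this group at 488 kb and had no peak of any list within 100 kb either. The mean pileup of these 5 ran from 8 to 91.3 fragments, and 3 of them lay above the median of 14.7 of all isolated regions.

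Isolated regions were narrower. The median width of their peaks was 372, 365 and 358 bp in lists 1, 2 and 3, against 440, 421 and 402 bp at the others, a ratio of 0.868 ± 0.0226. The joined region had a median width of 464 bp against 545 bp, and 10 isolated regions, or 2.52%, exceeded 1000 bp, against 10.6% of the others. Only 8 isolated regions held more than 1 peak of a list, or 2.02%, against 6.36%. The 3 widest, on chromosome 15 at 10598647 (1619 bp), chromosome 3 at 5934777 (1571 bp) and chromosome 4 at 1669610 (1440 bp), were all among the 10 with the highest pileup. Peak width grew with pileup in both groups. Among regions with a mean pileup over 14.7 and up to 23.7 fragments, the median peak width was 366 ± 20.4 bp at isolated regions and 383 ± 20.01 bp at the others (mean and SD over 3 lists). With over 23.7 fragments it was 504 ± 13.2 bp and 556 ± 21.5 bp. Between 10.3 and 14.7 fragments it was 341 ± 3 bp and 325 ± 19 bp, and with up to 10.3 fragments it was 275.5 ± 6.5 bp and 282 ± 11.02 bp. Isolated regions were thus narrower in 3 of these 4 ranges of pileup. With over 23.7 fragments the means differed by more than the SD of either group, and in the other ranges by less than that of the other regions. These SDs include differences in level between lists. Differences within each list are not given for these ranges, so the SDs do not measure how steady the differences were. The range over 23.7 fragments has no upper limit, so pileup was not held alike within it. There the other regions reached 288, 272 and 246 fragments in lists 1, 2 and 3, against 130, 152 and 144 at isolated ones.

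Summits of different lists fell as close together in isolated regions as elsewhere, to within the spread between pairs of lists. The median distance was 25, 27 and 26 bp for lists 1 and 2, 1 and 3, and 2 and 3, against 25, 25 and 26 bp at the other regions. Within 50 bp lay 74.5 ± 1.62% of summit pairs in isolated regions and 73.5 ± 0.761% in the others. All 3 summits were within 100 bp of each other in 334 isolated regions, or 84.1%, against 82.6% of the others. Within the ranges of pileup the distances were shorter or close to those of the others. They were 39.7 ± 4.51 against 51.7 ± 2.31 bp with up to 10.3 fragments, 38 ± 2 against 39.7 ± 1.15 bp between 10.3 and 14.7 fragments, and 23 ± 1 against 29 ± 1 bp between 14.7 and 23.7 fragments. With more than 23.7 fragments, where pileup was not held alike, they were 14.3 ± 2.89 against 16 bp.

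The tightest summits were at chromosome 4, 47330114 to 47330796, where the 3 summits lay within 1 bp and the pileup was 30, 36 and 35 fragments in lists 1, 2 and 3. At chromosome Z, 51372844 to 51373871, they also lay within 1 bp, with 28, 30 and 23 fragments. The region of chromosome 2 at 134407641 followed, with a mean distance between summits of 1.33 bp. Regions tied with it included chromosome 4, 15060290 to 15060649, and chromosome 5, 20573676 to 20574160. The regions at 47330114, 51372844 and 134407641 had mean pileups of 33.7, 27 and 28.7 fragments, in the highest of the ranges above, where summits were closest. The tied region of chromosome 5 lay in that range too, at 63.7 fragments. That of chromosome 4 had a mean of only 11, in the range between 10.3 and 14.7 fragments. The tightest summits were thus not all at high pileup. None of these was among the 10 strongest. The loosest summits were at chromosome 13, 7181600 to 7182846, where the summit of list 1 was 691 and 689 bp from those of lists 2 and 3, which lay 2 bp apart. Its pileups were 50, 45 and 45 fragments and it held 5 peaks, so list 1 had its strongest peak in another part of the same region. At chromosome 20, 2469527 to 2470447, the odd one was list 3, 560 and 558 bp from the others, with 23, 23 and 18 fragments. The region at chromosome Z, 43230990 to 43231855, was weak, with 9, 6 and 15 fragments, and its summits were up to 539 bp apart. Some pair of summits was over 200 bp apart in 18 isolated regions, or 4.53%, against 6.52% of the others.

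Agreement between lists in strength was somewhat looser at isolated regions. Spearman's rho of pileup between 2 lists was 0.833 ± 0.0221 across the 397 isolated regions and 0.895 ± 0.00224 across the others (SD over 3 pairs of lists). For fold enrichment it was 0.696 ± 0.0125 and 0.776 ± 0.00398, and for peak width 0.579 ± 0.00113 and 0.651 ± 0.0105. The points of each value share their libraries, and the isolated regions have fewer fragments, whose part in these differences was not tested. List 1 alone had the highest pileup at 218 isolated regions, or 54.9%, list 2 at 106, or 26.7%, and list 3 at 39, or 9.82%. This was the order of the lists' median pileups. No such shares are given here for the other regions, so whether isolated regions differ in this is not shown.

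The input level at isolated regions was low. It was worked out for each peak as (pileup + 1) / fold enrichment − 1, from the values the authors deposited, and is given relative to the mean over the peaks on numbered chromosomes in the same list. Its median at isolated regions was 0.635, 0.664 and 0.643 in lists 1, 2 and 3, against 0.953, 0.913 and 0.943 at the others. In fragments these were 1.38, 1.38 and 1.03 against 2.07, 1.90 and 1.51, a ratio of 0.692 ± 0.0314. On numbered chromosomes alone the ratio was 0.746 ± 0.0611. Chromosome Z held 12.1% of isolated and 4.66% of all reproducible regions, and its input was low at the other regions too. Their median on Z was 1.05, 1.03 and 0.754 fragments in lists 1, 2 and 3, against autosomal means of 2.17, 2.08 and 1.60. The shares that follow include Z, whose part in them was not tested. The level was below the autosomal mean in every list at 235 isolated regions, or 59.2%, against 27.5% of the others, and above it in every list at 6, or 1.51%, against 15.7%. The floor, below which the peak caller does not let the input fall, was 0.948, 0.924 and 0.744 fragments in lists 1, 2 and 3. It was reached in every list at 27 isolated regions, or 6.80%, where 0.811% of all reproducible regions met this. In a single list, 23.8 ± 4.91% of isolated regions were at the floor, against 4.66 ± 0.750% of the others.

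The low input was shared by the surroundings in part. Over the peaks of any kind between 100 kb and 1 Mb from the midpoint, the median of the mean input level was 0.846 ± 0.0336 around isolated regions and 1.015 ± 0.00542 around the others (SD, n = 3). Within the ranges of pileup the input stayed lower and fold enrichment, which is computed from it, was higher. With up to 10.3 fragments the relative input was 0.480 ± 0.0117 at isolated regions and 0.752 ± 0.0203 at the others, and fold enrichment was 4.26 ± 0.316 and 3.98 ± 0.0599. The value of 0.480 lay close to the floor, which in relative units was 0.437, 0.445 and 0.465 in lists 1, 2 and 3. With over 23.7 fragments, where pileup was not held alike, the input was 0.777 ± 0.0431 and 1.06 ± 0.0507. Fold enrichment there was 16.1 ± 0.463 and 14.3 ± 0.440. All these values include Z, whose part in them was not tested. What sets the low input was not tested.

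A few isolated regions had a high relative input in some lists. The highest mean over the lists was at chromosome 2, 36475993 to 36476394. Its values were 1.94, 0.830 and 2.36 in lists 1, 2 and 3, a spread that left list 2 below the autosomal mean. The region of chromosome 27 at 959386 had 1.94, 2.05 and 0.643, with list 3 low. At chromosome 6, 7067587 to 7068406, the values were 0.667, 0.664 and 3.30, so its high mean came from list 3. No region of these 3 had a high input in every list, so the 6 isolated regions above the autosomal mean in every list are others.

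Peaks outside reproducible regions, found in only 1 or 2 lists, were also sparse around isolated regions. They numbered 1.52, 1.18 and 1.85 within 100 kb of an isolated region in lists 1, 2 and 3, against 6.12, 5.02 and 4.85 around the others. The mean was 1.52 ± 0.336 against 5.33 ± 0.689, and it was 0.867 when list 3 was left out and regions needed the other lists only. Among the other regions this mean also fell with distance to the nearest neighbour. It was 5.82 ± 0.795 up to 5 kb, 4.02 ± 0.440 at 20 to 50 kb and 2.82 ± 0.337 at 50 to 100 kb. List 3 had the most such peaks around isolated regions and the fewest around the others. On autosomes alone list 3 again had the most around isolated regions, at 1.97, compared with 1.56 and 1.24 in lists 1 and 2. Chromosome Z went the other way, with 1.27, 0.771 and 1.15 in lists 1, 2 and 3 around its isolated regions, against 4.16, 3.37 and 4.82 around its others, so that list 1 had the most around the isolated ones and list 3 the most around the others. Many of these list 3 peaks were small. Up to 5 fragments were counted at 53.5% of them, compared with 10.5% in list 1 and 12.2% in list 2, and around the other regions this share was 26.6% in list 3. The floor of the input was lowest in list 3, which lets smaller pileups pass the caller's limit, and its part in this was not tested.

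Joined into partial regions, these peaks gave 1433 pairs of an isolated region and a partial region within 100 kb, 1056 with a peak of 1 list and 377 with peaks of 2 lists. The share from a single list was 73.7%, compared with 67.7% of the 41354 partial regions on these chromosomes. Their highest pileup had a median of 7 fragments, and the strongest had 28. In 42 pairs, or 2.93%, the partial region had a higher pileup than the isolated one. These pairs were at 29 isolated regions, or 7.30%, and no such share is given here for the other regions. No partial region at all lay within 100 kb of 34 isolated regions, or 8.56%, against 0.198% of the others. At least 10 lay around 17 isolated regions, or 4.28%, against 64.5% of the others. Among isolated regions the most were at chromosome 1, 59064610 to 59065324, with 13 partial regions of 1 list and 1 of 2 lists, and pileups of its own of 25, 18 and 12 fragments. At chromosome 2, 78578708 to 78579356, there were as many in all, 7 of each kind, around a region with 53, 46 and 48 fragments. The region at chromosome 5, 25486234 to 25486652, had 8 and 5 around it with only 8, 7 and 11 fragments. Isolation by the rule seldom meant a stretch empty of other peaks, since only the 34 regions above had no partial region within 100 kb.

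Within 100 kb of an isolated region, partial peaks were densest in the first 25 kb on either side, in each list. There were 0.976 ± 0.174 per 100 kb in that step, and 0.596 ± 0.161, 0.777 ± 0.187 and 0.688 ± 0.159 in the next 3 steps of 25 kb (SD, n = 3). The means of the first and the third step differed by about the SD over lists, which includes differences in level between lists. Within lists 1, 2 and 3 the first step had 0.967, 0.806 and 1.15, against 0.831, 0.569 and 0.932 in the third. Around the other regions the densities of the 4 steps were 3.11 ± 0.401, 2.65 ± 0.352, 2.48 ± 0.310 and 2.41 ± 0.315. Beyond the limit both kinds of sites came back slowly. Between 475 and 500 kb from an isolated region, partial peaks were at 1.36 ± 0.147 and reproducible regions at 2.43 per 100 kb, still below the 1.97 ± 0.249 and 4.08 around the others.

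**Figure D4:**
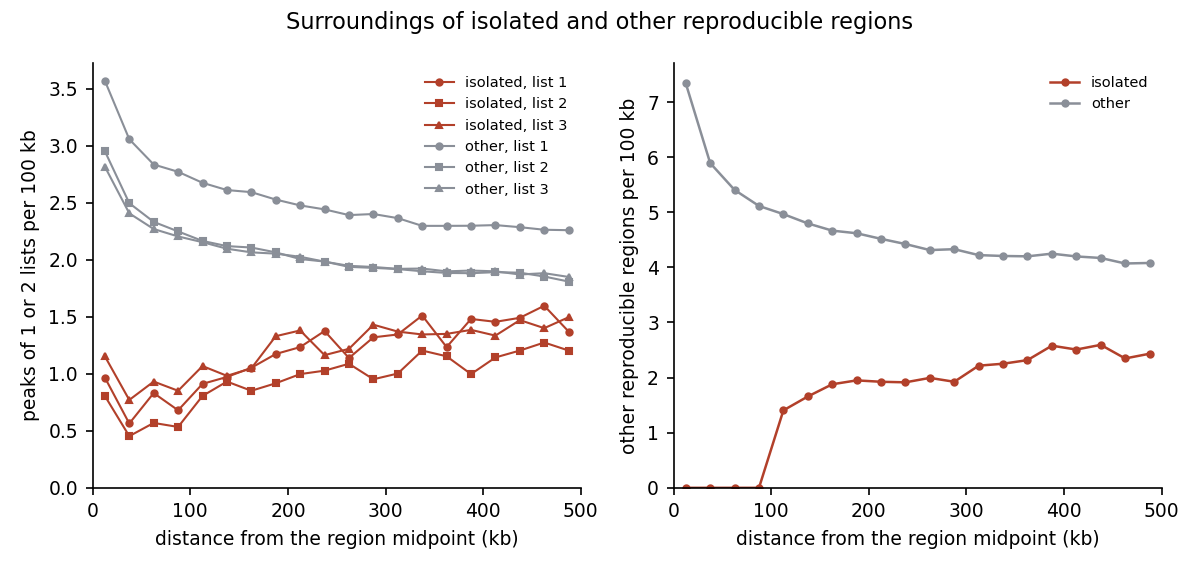
Density of peaks found in only 1 or 2 lists (left, 1 line per list) and of other reproducible regions (right) by distance from the midpoint of isolated and of other reproducible regions, in 25-kb steps on both sides. The empty 100 kb around isolated regions in the right panel is the rule itself, and the densities beyond it stay under those of the other regions as far as 500 kb.

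The lower pileup, narrower peaks and lower input of isolated regions continued a fall with distance to the nearest neighbour that was seen among the other regions. With neighbours up to 5 kb away, the median pileup was 24, 22 and 18 fragments in lists 1, 2 and 3. At 20 to 50 kb it was 20, 18 and 15, and at 50 to 100 kb, in 1064 regions, it was 18, 16 and 13, close to the 17, 15 and 12 of the isolated regions. Relative input followed, at 0.990 ± 0.0451 up to 5 kb, 0.845 ± 0.0657 at 20 to 50 kb, 0.754 ± 0.0199 at 50 to 100 kb and 0.647 ± 0.0146 at isolated regions. Peak width was 440 ± 20.5 bp up to 5 kb, 375 ± 17.5 bp at 50 to 100 kb and 365 ± 7 bp at isolated regions. The means of the last pair differed by less than the SD at 50 to 100 kb, which includes differences in level between lists. In lists 1, 2 and 3 that pair was 392, 376 and 357 bp against 372, 365 and 358 bp, so list 3 showed no fall. Relative input fell across the 100 kb limit by more than the spread between lists. All distances over 100 kb form a single step here, so these values cannot show whether a break lies at that limit.

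**Figure D5:**
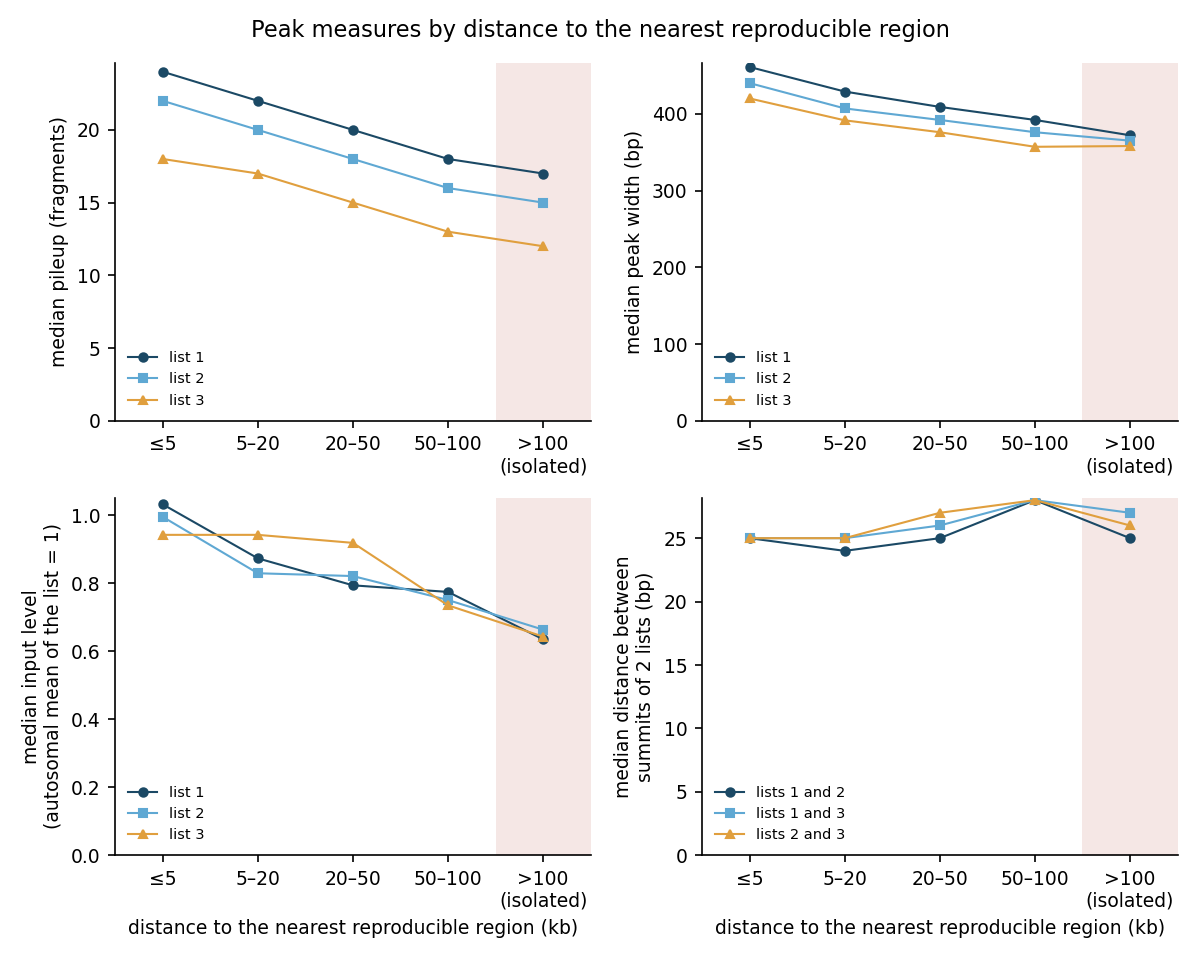
Median pileup, peak width, relative input level and distance between summits, by distance to the nearest reproducible region (points, lists or pairs of lists; shaded, isolated regions). Pileup falls with distance in every list, and so do width and input except at single steps in list 3. There width is 357 bp at 50 to 100 kb and 358 bp at isolated regions. Input in list 3 is 0.943 both up to 5 kb and at 5 to 20 kb. Summit distances stay between 24 and 28 bp.

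The differences were also seen within chromosomes, with exceptions. On the 8 chromosomes with at least 10 isolated regions, the ratio of median pileup, isolated over other, was 0.810 ± 0.0241 on chromosome 1, 0.704 ± 0.0363 on 2, 0.777 ± 0.0942 on 3, 0.743 ± 0.0463 on 4 and 0.709 ± 0.0363 on 5. Chromosomes 7 and 13, with 10 isolated regions each, had 0.570 ± 0.0879 and 0.453 ± 0.0411. On chromosome 13 the isolated regions had a median of only 8.5, 9 and 6.5 fragments in lists 1, 2 and 3, against 20, 18 and 15 at the others. On Z the pileup of isolated regions was 16.5, 12.5 and 9.5 fragments against 16, 15 and 12 at the others, so list 1 went the other way. The ratio of input was 0.794 ± 0.116 on chromosome 1, 0.608 ± 0.0267 on chromosome 2 and 0.932 ± 0.0590 on Z. On Z the median input of isolated regions was at the floor in lists 1 and 2. That of the others was above it in every list, at 1.05, 1.03 and 0.754 fragments. In list 3 the median was 0.754 fragments in both groups, close to the floor of 0.744, so this list showed no difference. The mean ratio of fold enrichment was below 1 on 7 of the 8 chromosomes, from 0.617 ± 0.0458 on chromosome 13 to 0.981 ± 0.0350 on chromosome 3. Chromosome 1 was the exception, at 1.03 ± 0.00562. On chromosomes 3 and Z the lists differed in direction, with list 1 above 1 and lists 2 and 3 below.

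Set against the nearest reproducible regions that were not isolated, the differences in pileup, width and input were smaller. These 593 flanking regions lay at a median of 224 kb from the isolated ones and had a median pileup of 20, 18 and 15 fragments in lists 1, 2 and 3, so the ratio, isolated over flanking, was 0.828 ± 0.0255. The ratio of peak width was 0.927 ± 0.0210 and that of input 0.834 ± 0.0357. For fold enrichment it was 0.895 ± 0.0354, within the spread of the 0.886 ± 0.0425 against all the others. The flanking regions were thus themselves weaker than the 23, 21 and 17 fragments of all regions with a neighbour.

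The regions closest to the limit of the rule differed in distance by less than 1 kb. Just inside were the regions at chromosome Z, 28330587 to 28331133, 100.1 kb from its neighbour with 21, 12 and 9 fragments in lists 1, 2 and 3, and at chromosome 1, 77765338 to 77765880, 100.6 kb away with 17, 19 and 11. Just outside were those at chromosome 5, 5184667 to 5185338, 99.9 kb away with 28, 30 and 16, and at chromosome 8, 1801012 to 1801583, 99.8 kb away with 44, 50 and 46.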

How the data were processed

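The data are 3 peak tables, whose peak names hold IP and a list number. They were taken as 1 per TCF21 immunoprecipitation with none pooled, which no label states. The number in those names was not matched to a sample's replicate number. The tools listed in the submitters' processing notes, with no role stated, are MACS2, HOMER, bedtools, STAR 2.5.3a and Trimmomatic 0.36; the genome build, calling threshold and control library were not given there or in the headers. Per the file headers, the authors deposited the pileup (a signal in fragments, 100% whole numbers), the fold enrichment (a ratio), the −log10 of the p-value and q-value, the width and the summit. No deposited p-value exceeds 0.01.

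Joining, isolation and the input level were computed with Python 3.11.15, pandas 2.3.3 and numpy 2.4.6 and checked on simulated lists. Of several peaks of a list in 1 region, that of highest fold enrichment was used. Input within 0.5% of a list's minimum was called at the floor. A Poisson p-value from pileup and recovered input was within 1% plus 0.01 of the deposited −log10 value for 100% of isolated regions in each list. Depth is unknown, so no counting interval is given. Regions of 1 list are not replicates, so values are medians per list with the mean and SD over lists. Regions named are the 10 of highest mean pileup, the 5 most distant, the 3 widest, the 3 with summits farthest apart and the 3 closest together, the 3 of highest relative input, the 3 with most partial regions and the 2 on each side of the limit. The members and this rule were chosen with earlier results of these data known. The last place among the 3 closest together was tied, and some regions tied for it are also named. No sequence or gene annotation of the files' build was used here.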

Additional observations from a re-analysis of the deposited data

How the results depend on the processing

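The pileup, peak width and input of isolated regions stayed below those of the other regions under all 12 alternatives, and the width ratio, 0.868, stayed within 1 SD of itself in each. The number of isolated regions, 397, was 1461 with an isolation distance of 50 kb, 74 with 200 kb, 34 when any peak counted as a neighbour and 636 with a q-value of at most 1e-05. In the same order, the pileup ratio, 0.720, was 0.770, 0.767, 0.621 and 0.801, the median distance between summits, 26 bp, was 27.7, 21.8, 24.8 and 20.5 bp, and the number of partial peaks, 1.52, was 2.46, 1.07, 0 and 0.844, where 0 is set by construction. The input ratio, 0.692, was 0.804 with 50 kb, 0.607 with any peak, 0.765 with the stricter q-value and 0.746 on numbered chromosomes only. The summit distance was 25 bp with a reciprocal overlap of 50%. Beyond what each construction fixes, the cause was not tested. With each list left out in turn there were 345 to 355 isolated regions, pileup ratios of 0.711 to 0.719, width ratios of 0.863 to 0.889, summit distances of 27 to 29 bp, 0.867 to 1.21 partial peaks and input ratios of 0.637 to 0.726. Taking the peak of highest pileup, a q-value of at most 0.05 or leaving out the regions near chromosome ends moved none of these by more than the spread between lists.

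No paired analysis was possible because input values are not listed by sample and no label ties a list to a replicate number. Depth is unknown and was not varied; the smallest pileups were 3 or 4 fragments, so weak regions have coarse values.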
